A study of Mus musculus with 8 samples.

Results

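The nuclear genes for the subunits of the 5 oxidative phosphorylation complexes were examined in mouse preSC cells with and without a guide RNA against Max. They were taken by gene symbol (Nduf a, b, c, s or v with a number, Sdha to Sdhd, Uqcr, Cox4 to Cox8, and Atp5), which gave 85 of the 23284 genes in the files. Of these, 81 encode subunits: 35 of complex I, 4 of complex II, 8 of complex III, 19 of complex IV and 15 of complex V. Ndufa4 and its paralogue Ndufa4l2 were placed in complex IV, where current structures have NDUFA4. The other 4 symbols were kept apart: Atp5s (coupling factor B), Atp5sl (now Dmac2, a complex I assembly protein), Cox7a2l (which joins complexes III and IV into supercomplexes) and Cox4nb (now Emc8, of the ER membrane complex and no respiratory protein). Some nuclear subunits have symbols outside this rule, among them Ndufab1, Cyc1, Usmg5 and 2010107E04Rik. They were counted in a separate list, so the counts and sums of each complex leave them out.

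preSC cells are preneoplastic neuroendocrine cells of the mouse lung, used to study small cell lung cancer. All 8 libraries came from cells of mice carrying Chga-GFP with floxed Rb (lox/lox), p53 (lox/lox) and p130 (lox) alleles, on a 129/SvJ; C57BL/6 background, so the controls carry these alleles too. The 4 MaxKO libraries came from cells that received an sgRNA to Max and the 4 Ctrl libraries from cells with a control sgRNA. Both kinds of population were polyclonal and selected with puromycin, and neither was treated further. Whether the 4 libraries of a group were grown as separate cultures is not stated, so the spread behind each p-value may be technical. No animal ages are given.

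Oxidative phosphorylation makes ATP at the inner mitochondrial membrane. Complex I takes electrons from NADH and complex II from succinate. Complex III passes them from ubiquinol to cytochrome c, complex IV passes them to oxygen, and complex V uses the resulting proton gradient to make ATP. Every complex but II combines subunits encoded in the nucleus with some encoded in mitochondrial DNA, and the 13 mitochondrially encoded subunits were not analysed here. MAX is the obligate partner of MYC proteins, and the pair binds the E-box CACGTG; factors NRF1 and the ETS protein GABP are known regulators of nuclear respiratory genes.

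A RefSeq promoter window (GRCm38.p6, 250 bases before to 50 after the gene's start) was at hand for 66 of the 81 subunits. The E-box CACGTG was in 6 of them (9.09%), against 11.6% of the 10542 tested genes with a window. The 6 were Ndufv1 and Ndufa7 of complex I and Atp5f1, Atp5g1, Atp5g3 and Atp5l of complex V, which made 4 of 14 complex V genes with a window (28.6%). The palindromic NRF1 consensus was in 5 subunit windows (7.58%, against 2.28% of tested genes), and the ETS motif CCGGAAG in 16 (24.2%, against 19.5%). Each motif was searched on both strands, and no one of the 3 contains another. A match describes letters in the window, not a bound site.

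The stretches below are from RefSeq windows, with the bases that GENCODE counts as exons of any gene removed. The first 3 are subunits with an E-box, in capitals, and the other three are genes that changed between the groups, of which Atp5sl holds an E-box. The Uqcrc1 window holds the NRF1 motif once, outside the printed stretch, and neither of the other motifs, and the Cox6b2 window holds none of the 3.
Ndufv1 (chr19:4012859-4012984, minus strand): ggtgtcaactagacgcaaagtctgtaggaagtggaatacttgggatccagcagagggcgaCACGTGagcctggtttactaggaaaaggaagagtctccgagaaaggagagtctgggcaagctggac
Atp5g3 (chr2:73911499-73911576, minus strand): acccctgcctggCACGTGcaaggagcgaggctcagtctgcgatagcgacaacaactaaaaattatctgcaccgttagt
Atp5l (chr9:44920824-44920949, minus strand): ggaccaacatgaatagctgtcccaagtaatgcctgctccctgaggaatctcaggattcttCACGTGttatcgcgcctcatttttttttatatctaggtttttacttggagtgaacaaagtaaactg
Atp5sl (chr7:25619332-25619413, plus strand): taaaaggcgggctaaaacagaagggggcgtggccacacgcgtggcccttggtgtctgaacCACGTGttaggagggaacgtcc
Uqcrc1 (chr9:108936398-108936632, plus strand): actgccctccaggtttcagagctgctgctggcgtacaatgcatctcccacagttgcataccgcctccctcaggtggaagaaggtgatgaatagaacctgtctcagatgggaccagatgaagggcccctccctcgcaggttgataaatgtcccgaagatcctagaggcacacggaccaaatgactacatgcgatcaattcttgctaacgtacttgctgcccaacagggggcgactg
Cox6b2 (chr7:4753095-4753228, minus strand): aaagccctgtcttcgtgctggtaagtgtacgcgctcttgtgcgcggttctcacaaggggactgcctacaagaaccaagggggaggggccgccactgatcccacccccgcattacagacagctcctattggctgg
The capitals lie 169 bases before the start of Ndufv1, 238 before Atp5g3, 147 before Atp5l and 22 before Atp5sl. None of the 6 subunit genes with an E-box passed the test described next (edgeR), and their log2 fold changes ran from −0.12 to 0.21. Of the 58 tested subunits with a window and no E-box, 2 passed it, and of all tested genes 23.1% did. Sdhc and Uqcrc2, which also passed, had no window at hand and are outside this comparison. Whether an E-box goes with passing was not tested.

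Gene counts per library came to 14952291 to 19480947 in MaxKO and 13711278 to 19804949 in Ctrl. Levels are CPM, read counts scaled to library size with TMM factors, and the smallest level that 3 counts can show was 0.151 to 0.219 CPM. Max itself read 42.3, 42.3, 59.1 and 68.0 CPM in MaxKO libraries 1 to 4 and 65.5, 70.2, 75.2 and 61.9 in Ctrl (log2 fold change −0.37, adjusted p = 0.0955 by edgeR), so library 4 labelled MaxKO lay among the controls; editing with a guide need not lower a transcript. The 11 neuroendocrine markers were all expressed, with summed levels of 6770 to 7480 CPM in MaxKO and 5960 to 8210 in Ctrl. Of these 11, 4 were called (36.4%, against 23.1% of all tested genes): Chgb (log2 fold change −0.37), Dll3 (−0.51) and Resp18 (−0.53) fell and Uchl1 (0.41) rose. Calca, not called, read 1980 and 1780 CPM in Ctrl libraries 1 and 2, 399 and 467 in Ctrl 3 and 4, and 524 to 589 in MaxKO. The part of these marker differences in the subunit results was not tested. Summed fibroblast markers were 49.3 to 65.7 CPM in MaxKO and 24.4 to 44.5 in Ctrl, nearly all of it Dcn, with Col1a1, Col1a2, Col3a1 and Pdgfrb near 0 and Lum at 0. Dcn was called higher in MaxKO, and Pdgfra, at 0.260 against 1.35 CPM, lower (log2 fold change −2.37, adjusted p = 0.00423 by edgeR). Summed endothelial markers were 595 to 702 against 258 to 422 CPM, nearly all Vwf, with Cdh5 and Kdr near 0. Haematopoietic markers (2.46 to 4.20 against 2.97 to 5.64 CPM), muscle markers (0.992 to 1.85 against 1.18 to 1.74, Tnnt3 at 0) and other lung epithelium markers (11.4 to 13.0 against 11.1 to 14.7, Krt5 and Scgb3a2 at 0) overlapped between the groups. In bulk RNA, fewer cells of a kind and less RNA per cell cannot be told apart.

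Most subunit genes did not differ between MaxKO and Ctrl beyond the spread between libraries. Of the 81 subunits, 78 had enough reads to test, and 4 of these (5.13%) were called changed at an adjusted p under 0.05 by edgeR's quasi-likelihood test with Benjamini-Hochberg adjustment over 13358 genes. The background was 23.1% of all tested genes called (10.9% higher and 12.2% lower in MaxKO), and 17.8% of the 2163 tested genes at least as abundant as the median member. Sdhc of complex II and Uqcrc2 of complex III rose, and Uqcrc1 of complex III and Cox6b2 of complex IV fell. Beside them, 74 were not called. Of the 78 fold changes, 39 lay above 0 and 39 below, with a median of 0.

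The intervals describe how precisely each fold change was estimated from this set of libraries. Because independent cultures are not documented, the intervals may be too narrow and set no limit on the effect of the guide. In 67 of 78 subunits (85.9%) the 95% interval of the log2 fold change lay within 0.5 of 0 on either side, against 57% of all tested genes. A fold change under 0.3 in size was found in 73 subunits (93.6%), in 68.6% of all tested genes and in 84.2% of the 2059 genes at least as abundant as the median subunit. At an unadjusted p under 0.05, 10 subunits (12.8%) passed, against 35.5% of all tested genes and 29.2% of those 2059 abundant genes. The 4 MaxKO and 4 Ctrl levels did not overlap in 7 subunits, where 26.4% of all tested genes did not overlap.

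The count of called subunits depended on which controls were used. It was 10 without Ctrl library 3 (8 higher, 2 lower; 12.8%, against 27.5% of all tested genes) and 7 without Ctrl library 4 (2 higher, 5 lower; 8.97%, against 27.8%). With Ctrl libraries 1 and 2 alone it was 20 (25.6%, against 44.6%), and with 3 and 4 alone it was 6 (7.69%, against 20.7%). Uqcrc1, Sdhc and Cox6b2 were called in each of these fits.

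**Figure D1:**
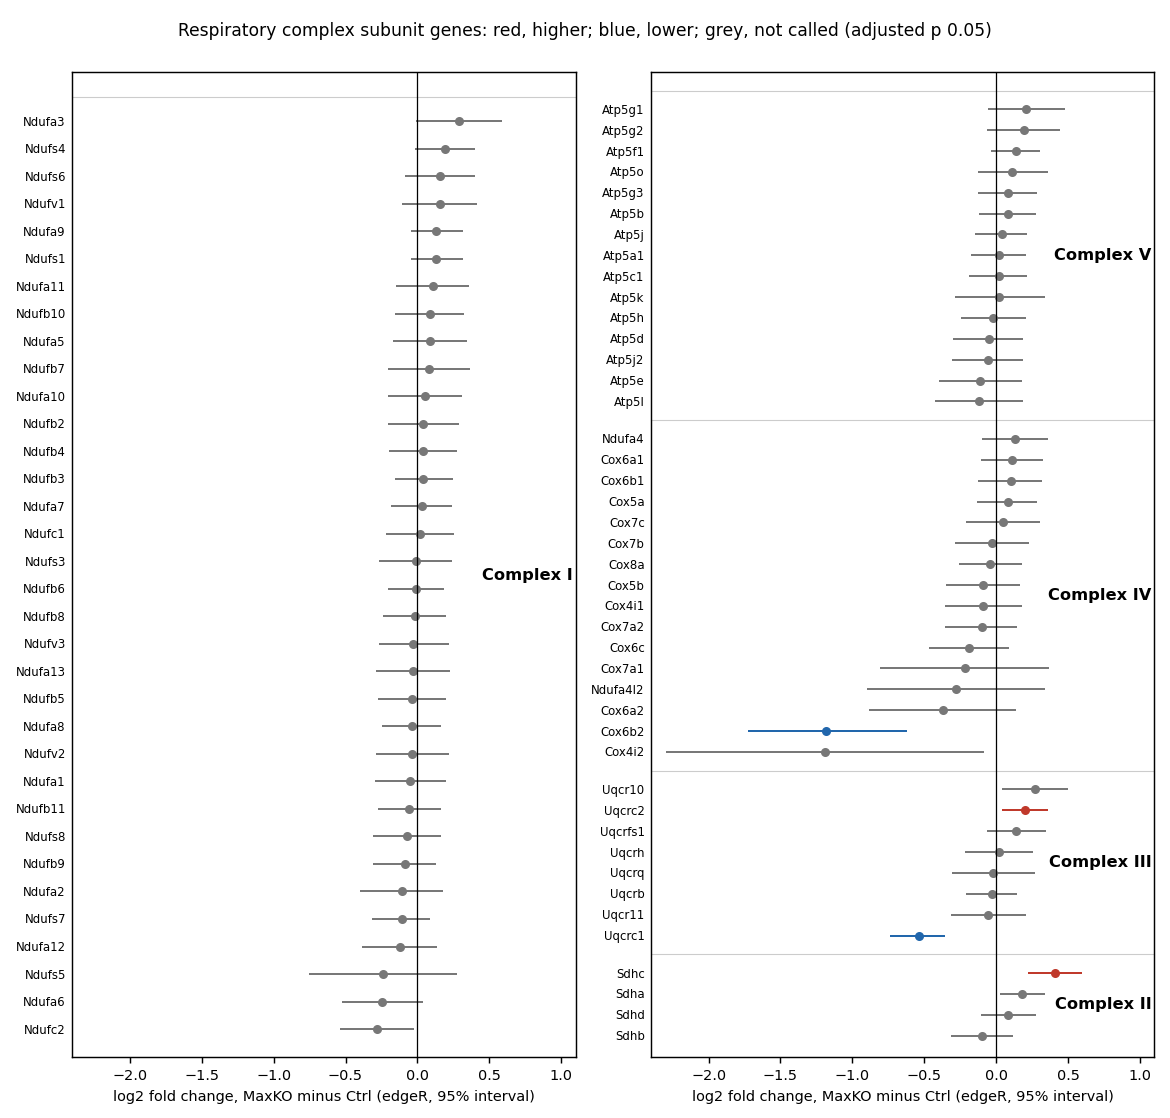
log2 fold change, MaxKO minus Ctrl (x axis), of 77 of the 78 tested subunit genes (y axis, by complex), as points with 95% intervals from edgeR; red marks genes called higher, blue lower and grey not called. Most points sit within 0.3 of 0, and the 4 coloured ones are Sdhc, Uqcrc2, Uqcrc1 and Cox6b2.

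Complex I, the entry point for electrons from NADH, showed no called change. All 35 of its subunit genes taken by symbol were tested, and by edgeR 0 were called, against 23.1% of all tested genes. An unadjusted p under 0.05 was found in 3, against 35.5% of all tested genes. DESeq2 called 1 of the 35 and limma-voom 0. The median log2 fold change was −0.01 and the range −0.28 to 0.29, with 31 of 35 intervals within 0.5 of 0. The 7 core subunits, which hold the flavin and iron-sulphur centres and the ubiquinone site, had a median of −0.01, the lowest being Ndufs7 at −0.11, and the 28 accessory subunits had a median of 0.01.

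Ndufv1, the flavin subunit that takes electrons from NADH, averaged 211 ± 9.32 CPM (SD, n = 4) in MaxKO and 189 ± 36.3 in Ctrl, where libraries 1 and 2 read 160 and 166 and library 3 read 240. Both groups overlapped.

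The accessory subunit with the largest difference upwards was Ndufa3 of the membrane arm, at 49.7, 39.4, 46.7 and 42.6 CPM in MaxKO and 33.9, 38.1, 45.8 and 28.6 in Ctrl. The groups overlapped through Ctrl library 3, and the log2 fold change was 0.29 ± 0.13 (SE, adjusted p = 0.14 by edgeR), or 0.42 with an adjusted p of 0.0151 without that library. The other 7 fits that left out 1 library did not call Ndufa3 (edgeR adjusted p up to 0.328). The largest difference downwards was in Ndufc2, also of the membrane arm, at 131, 119, 129 and 107 CPM in MaxKO and 160, 164, 154 and 113 in Ctrl. Here Ctrl library 4 lay among the MaxKO values. Its log2 fold change was −0.28 ± 0.11 (SE, adjusted p = 0.0977 by edgeR), or −0.39 with an adjusted p of 0.00553 without Ctrl library 4. Ndufs5 had only 1.46 to 2.85 CPM in the 8 libraries and has a near-identical copy elsewhere in the genome, so its level is uncertain.

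Complex II, succinate dehydrogenase, also works in the TCA cycle and is the one complex with all its subunits encoded in the nucleus. Sdhc, a membrane anchor subunit, rose, the 1 called of 4 tested genes (25%, near the 23.1% of all tested genes). It read 104, 97.0, 107 and 105 CPM in MaxKO and 82.3, 84.6, 76.9 and 66.9 CPM in Ctrl. All 4 MaxKO libraries lay above all 4 controls. The mean was 103 ± 4.35 (SD, n = 4) against 77.7 ± 7.86 CPM, 1.33-fold higher (log2 fold change 0.41 ± 0.08, SE; adjusted p = 0.00418 by edgeR). It was called under every alternative tried, at log2 fold changes of 0.35 to 0.44 when 1 library was left out.

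The other complex II genes were not called. Sdha, the flavin subunit that oxidises succinate, read 225, 237, 230 and 240 CPM in MaxKO and 215, 205, 191 and 213 in Ctrl. These did not overlap, at a log2 fold change of 0.18 and an adjusted p of 0.0798 (edgeR), and DESeq2 called it (adjusted p = 0.0269). Sdhb, the iron-sulphur subunit, was at 69.0 ± 5.28 and 74.1 ± 9.10 CPM (SD, n = 4), a log2 fold change of −0.10. Sdhd, the other membrane anchor, was at 135 ± 4.19 and 127 ± 14.5 CPM, a log2 fold change of 0.08.

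Complex III had 1 called gene in each direction, or 25% of its 8 genes taken by symbol, near the 23.1% of all tested genes called. The 2 were its largest matrix subunits, core proteins 1 and 2. Uqcrc1, core protein 1, fell. It read 130, 114, 121 and 129 CPM in MaxKO and 182, 183, 198 and 155 CPM in Ctrl. Every MaxKO library lay below every control. The mean was 123 ± 7.45 (SD, n = 4) against 180 ± 17.7 CPM, 1.46-fold lower (log2 fold change −0.54 ± 0.08, SE; adjusted p = 0.000918 by edgeR). It was called under every alternative, at −0.60 to −0.49 when 1 library was left out.

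Uqcrc2, core protein 2, read 201, 204, 223 and 197 CPM in MaxKO and 176, 181, 181 and 180 CPM in Ctrl. The groups did not overlap, and the controls lay close together. The log2 fold change was 0.20 ± 0.07 (SE), with an adjusted p of 0.0491 by edgeR. This call lay at the threshold: it was lost in 6 of the 8 fits that left out 1 library (adjusted p up to 0.184) and in 6 of 10 other alternatives (up to 0.152). In GENCODE (GRCm38), 26.6% of its exon bases are shared with Pdzd9, which had 4 to 10 counts a library.

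The ratio of Uqcrc1 to Uqcrc2, whose proteins sit side by side in the complex, was 0.644, 0.560, 0.542 and 0.655 in MaxKO and 1.03, 1.01, 1.09 and 0.861 in Ctrl. No MaxKO ratio reached a control ratio. As both genes were named for their calls, the ratio is given as a description, with no test, and it is a ratio of CPM not corrected for length. The remaining 6 genes of complex III were not called. Uqcrfs1, the Rieske iron-sulphur protein, was at 170 ± 3.25 and 155 ± 20.3 CPM (SD, n = 4; log2 fold change 0.14). Uqcr10, a small subunit, read 159, 126, 147 and 131 CPM in MaxKO and 112, 120, 134 and 102 in Ctrl, with overlap, at a log2 fold change of 0.27 and an adjusted p of 0.071 (edgeR), or 0.0172 without Ctrl library 3. It was not called in the other 7 fits that left out 1 library (edgeR adjusted p up to 0.222). The small subunits Uqcrb, Uqcrh, Uqcrq and Uqcr11 lay between −0.06 and 0.02.

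**Figure D2:**
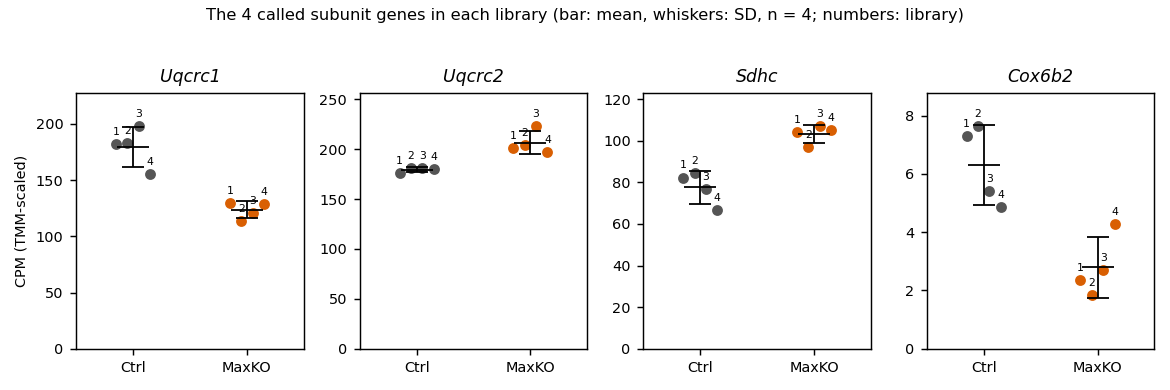
CPM (y axis, from 0) of the 4 called subunit genes in each library, numbered, with the mean as a bar and the SD as whiskers (n = 4 a group). For Uqcrc1 and Cox6b2 every MaxKO point lies below every Ctrl point, and for Uqcrc2 and Sdhc above.

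Complex IV, cytochrome c oxidase, has subunits with a common form and a form restricted to some tissues. The 11 genes that are not tissue forms ran from −0.19 (Cox6c) to 0.13 (Ndufa4) on the log2 scale, with a median of −0.03. None was called by edgeR, DESeq2 or limma-voom, where edgeR called 23.1% of all tested genes. An unadjusted p under 0.05 was found in 0 of the 11, against 35.5% of all tested genes. All 11 intervals lay within 0.5 of 0. Ndufa4 read 151, 138, 151 and 133 CPM in MaxKO and 126, 148, 142 and 106 in Ctrl, which overlapped. Cox6c, at 199 ± 27.2 and 227 ± 33.9 CPM (SD, n = 4), overlapped as well.

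Of the 8 tissue forms, 5 were tested. Cox8b, the muscle form of subunit 8, and Cox8c, its testis form, had 0 reads in every library, below the 0.151 to 0.219 CPM that 3 counts would give. Cox7b2 had 0 to 2 reads a library. All 5 tested forms had a log2 fold change below 0 (median −0.37). With Ctrl libraries 1 and 2 alone, though, Cox6a2 and Ndufa4l2 were at 0.06 and 0.07. Of the 5, 1 was called (20%, near the 23.1% of all tested genes).

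That gene was Cox6b2, the testis form of subunit 6b, which fell. It read 2.35, 1.86, 2.71 and 4.27 CPM in MaxKO and 7.30, 7.64, 5.42 and 4.88 CPM in Ctrl. The groups did not overlap, though MaxKO library 4 and Ctrl library 4 came close. The mean was 2.80 ± 1.04 (SD, n = 4) against 6.31 ± 1.36 CPM, 2.26-fold lower (log2 fold change −1.18 ± 0.25, SE; adjusted p = 0.00564 by edgeR). It was called under every alternative, at −1.46 to −1.02 when 1 library was left out and at −0.89 with Ctrl libraries 3 and 4 alone. Its counts were 28 to 145 reads a library. Its common counterpart, Cox6b1, was at 218, 186, 223 and 191 CPM in MaxKO and 175, 194, 223 and 172 in Ctrl, which overlapped (log2 fold change 0.10).

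Cox4i2, a form of subunit 4 known from lung and low oxygen, read 0.365, 0.199, 0.610 and 0.766 CPM in MaxKO and 0.856, 0.962, 2.27 and 0.505 in Ctrl. These are 3 to 31 reads a library, and the groups overlapped. Its log2 fold change was −1.19 ± 0.50 (SE, adjusted p = 0.112 by edgeR). Without Ctrl library 4 the edgeR adjusted p was 0.0461, and the other 7 fits without 1 library did not call it (up to 0.263). Over the 8 such fits the log2 fold change ran from −1.51 to −0.68. Cox4i1, the common form, read 440, 395, 424 and 448 CPM in MaxKO and 510, 518, 449 and 344 in Ctrl, so that Ctrl libraries 1 and 2 lay above the MaxKO values and Ctrl library 4 below them.

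Cox6a2, the heart and muscle form of subunit 6a, was the one tissue form at a substantial level, at 37.4, 43.9, 61.4 and 55.7 CPM in MaxKO and 41.5, 53.6, 92.1 and 70.4 in Ctrl. The groups overlapped, and within each the spread was wide. Its common counterpart Cox6a1 read 403, 339, 377 and 381 CPM in MaxKO and 333, 358, 398 and 301 in Ctrl, also overlapping. The summed muscle markers are given above.

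The last of these pairs were also close between the groups. Cox7a1, the muscle form of subunit 7a, stood at 0.531 to 0.835 CPM in MaxKO and 0.782 to 0.856 in Ctrl. The common form, Cox7a2, read 204, 188, 209 and 170 CPM in MaxKO and 232, 230, 202 and 165 in Ctrl. Ndufa4l2, a paralogue of NDUFA4 known to be induced by low oxygen, stood at 0.766 to 1.06 CPM in MaxKO and 0.805 to 1.46 in Ctrl. None of the 3 pairs of groups was free of overlap.

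The share of each isoform within its family was compared over the libraries, with 7 shares in all. Cox6b2 made up 1.07, 0.990, 1.20 and 2.19% of the Cox6b1 and Cox6b2 CPM in MaxKO and 4.00, 3.78, 2.37 and 2.77% in Ctrl. The groups did not overlap, and the two-sided exact permutation p was 0.0286, the smallest that 70 assignments allow, or 0.2 after Benjamini-Hochberg adjustment over the 7 shares. Cox6a2 made up 11.7 ± 2.36% against 15.5 ± 4.01% of its family (SD, n = 4; exact permutation p = 0.229). Cox4i2 made up 0.112 ± 0.0550% against 0.251 ± 0.169% (exact permutation p = 0.114). No share passed the adjusted threshold.

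Complex V, the ATP synthase, had no called subunit among the 15 taken by symbol, all tested, by edgeR, DESeq2 or limma-voom. By edgeR 0 had an unadjusted p under 0.05. Among all tested genes edgeR called 23.1%, and 35.5% had an unadjusted p under 0.05. The range of complex V was the narrowest after that of the common complex IV genes, from −0.12 (Atp5l) to 0.21 (Atp5g1). Its median was 0.02, with all 15 intervals within 0.5 of 0. The catalytic head F1 ran from −0.11 to 0.08. Its catalytic beta subunit, Atp5b, averaged 1330 ± 41.5 CPM (SD, n = 4) in MaxKO and 1260 ± 121 in Ctrl. The peripheral stalk ran from −0.02 to 0.14, and the small membrane subunits from −0.12 to 0.02.

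The c ring, which turns as protons pass, is built from 1 protein encoded by 3 genes. Atp5g1 read 213, 177, 199 and 193 CPM in MaxKO and 145, 169, 216 and 149 in Ctrl, Ctrl library 3 being the highest of all 8. Atp5g2 read 244, 212, 232 and 221 CPM in MaxKO and 162, 185, 246 and 202 in Ctrl, with the same library highest. Atp5g3 read 291, 262, 274 and 268 CPM in MaxKO and 246, 259, 303 and 227 in Ctrl. Their log2 fold changes were 0.21, 0.19 and 0.08, none called. Without Ctrl library 3, Atp5g1 (adjusted p = 0.00952) and Atp5g2 (0.0195) passed in edgeR. With all 8 libraries neither gene passed in edgeR (adjusted p = 0.244 and 0.253). In the other 7 fits that left out 1 library neither passed (edgeR adjusted p up to 0.492 and 0.556).

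Atp5f1, subunit b of the peripheral stalk, was the one complex V gene whose groups did not overlap, at 273, 275, 293 and 274 CPM in MaxKO and 266, 262, 261 and 225 in Ctrl. Its log2 fold change was 0.14 ± 0.08 (SE, adjusted p = 0.218 by edgeR). Atp5l, subunit g, read 185, 163, 183 and 146 CPM in MaxKO and 203, 217, 183 and 133 in Ctrl, which overlapped. Atp5l has the most near-identical copies of any subunit, 8, and is uncertain for that reason, as are the other genes among the 18 subunits with at least 1 copy. Uqcrc1, Uqcrc2, Sdhc and Cox6b2 have none.

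Of the 4 symbols kept apart, 1 was called (25%, near the 23.1% of all tested genes). Atp5sl, needed for assembly of complex I, rose, at 49.0, 44.2, 45.4 and 47.0 CPM in MaxKO and 34.4, 36.0, 31.0 and 39.2 in Ctrl, without overlap. The mean was 46.4 ± 2.08 (SD, n = 4) against 35.1 ± 3.43 CPM, at a log2 fold change of 0.40 ± 0.09 (SE; adjusted p = 0.00582 by edgeR). Its E-box is printed above. Atp5s was at 11.8 ± 0.519 and 9.98 ± 0.985 CPM, Cox7a2l at 117 ± 6.51 and 123 ± 19.2, and Cox4nb at 101 ± 4.43 and 104 ± 2.76 (SD, n = 4), none called.

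Summed over the 81 subunits taken by symbol, the levels were 13140, 11840, 13020 and 12130 CPM in MaxKO and 12520, 12930, 13320 and 10530 in Ctrl. These overlapped, the MaxKO mean was 1.68% above that of Ctrl, and the sum was 1.24% of the counts. The complex II sum was 533.7, 529.2, 547.4 and 548.4 CPM in MaxKO and 508.6, 500.6, 476.9 and 451.4 in Ctrl, and it was the only complex whose groups did not overlap (11.4% higher in MaxKO). The sums of complexes I, III and V differed by 1.21, 0.326 and 3.09%, and that of complex IV by −1.84%. Under upper-quartile scaling the sum of all subunits differed by −1.53%, and those of complexes I, III and V turned to −2, −2.84 and −0.173%, while complex II stayed 7.91% above Ctrl. The sums are descriptions with no test.

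Libraries of 1 group differed among themselves in a shared way. Ctrl library 4 was the lowest of its group in 67 of the 78 tested subunits (85.9%, against 25.3% of all tested genes), and MaxKO library 2 in 50 (64.1%). Ctrl library 3 was the highest of its group in 37 and MaxKO library 1 in 46. The median deviation of the subunits from their group mean was −0.23 on the log2 scale in Ctrl library 4 and 0.13 in Ctrl library 3. In 437 other genes with transcripts up to 1000 bases it was −0.17 and 0.13 in these libraries, and in 6995 with transcripts over 2000 bases 0.03 and −0.04. Of the tested subunits, 51 have transcripts up to 1000 bases. The share of reads assigned to no gene was 18.5 and 18.6% in Ctrl libraries 1 and 2, 23.3 and 23.4% in 3 and 4, and 20.5 to 21.5% in MaxKO. The part of transcript length or of that share in the subunit differences was not tested.

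**Figure D3:**
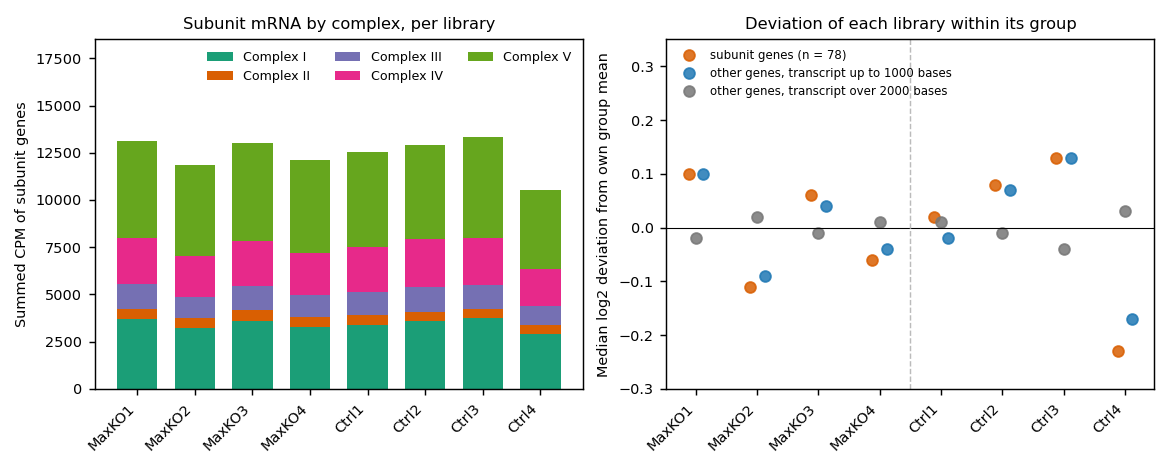
Left, CPM summed over the subunit genes of each complex (y axis, stacked bars from 0) in each of 8 libraries; right, the median log2 deviation of each library from its own group's mean, for the 78 subunit genes and for other genes with short or long transcripts. Ctrl library 4 has the lowest sum, 10530 CPM, and subunit and short genes deviate in the same direction in every library but Ctrl library 1.

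Genes that build the complexes were counted next. Of 40 assembly factors, 39 were tested and 4 called (10.3%, against the background of 23.1%), with a median log2 fold change of 0.01. Ndufaf3, a complex I assembly factor, fell, at 25.9, 22.5, 25.9 and 26.0 CPM in MaxKO and 34.3, 36.6, 32.8 and 30.6 in Ctrl, without overlap (log2 fold change −0.42, adjusted p = 0.00491 by edgeR). Cmc1, a complex IV factor, fell too (−0.47, adjusted p = 0.0105). Fam36a (now Cox20), a chaperone of complex IV subunit 2, rose (0.30, adjusted p = 0.0132), and 6330578E17Rik (now Coa5) rose by 0.24 at an adjusted p of 0.0498, a call lost in 6 of 8 fits that left out 1 library. Assembly factors of complexes II (3 tested), III (4) and V (3) had no call.

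Among 11 subunits and partners outside the symbol rule, 1 was called (9.09%, against 23.1% of all tested genes). It was Higd1a, a small protein of the inner membrane linked to complexes III and IV, which fell (log2 fold change −0.73). The subunits Ndufab1, Cyc1, Usmg5 and 2010107E04Rik of this list were not called, at log2 fold changes of −0.1, −0.01, −0.19 and 0.02. Of 15 regulators of mitochondrial biogenesis, 2 were called (13.3%, against 23.1% of all tested genes). Lrpprc, which stabilises mitochondrial mRNAs, rose, at 147, 146, 152 and 149 CPM in MaxKO and 120, 115, 122 and 122 in Ctrl (log2 fold change 0.31, adjusted p = 0.00383 by edgeR). Esrra, an orphan nuclear receptor that drives respiratory genes, fell by 0.43 on the log2 scale (adjusted p = 0.0312), a call lost in 4 of 8 fits without 1 library.

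Of 17 genes of pyruvate dehydrogenase and the TCA cycle, 2 rose (11.8%, near the 10.9% of all tested genes called higher) and none fell. Fh1, fumarate hydratase, the step after complex II, read 184, 184, 193 and 185 CPM in MaxKO and 124, 130, 121 and 127 in Ctrl, at a log2 fold change of 0.57 and an adjusted p of 0.000106 by edgeR. Every MaxKO library lay far above every control. Suclg1, a subunit of succinate-CoA ligase, the step before complex II, rose by 0.32 (adjusted p = 0.0155), a call lost in 2 of 8 such fits.

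Of 11 tested carriers and genes of the pyruvate gate, 4 rose (36.4%, against 10.9% of all tested genes called higher) and none fell, with a median of 0.14. Brp44 (now Mpc2), a subunit of the mitochondrial pyruvate carrier, read 199, 180, 184 and 166 CPM in MaxKO and 122, 122, 118 and 119 in Ctrl (log2 fold change 0.60, adjusted p = 0.000163 by edgeR), and the groups were far apart. Vdac2, an outer membrane channel, rose by 0.35 (adjusted p = 0.00232). Pdk3, a kinase that inhibits pyruvate dehydrogenase (0.32, adjusted p = 0.0292), and Slc25a5, an ADP/ATP carrier (0.27, adjusted p = 0.0352), were called too, and lost in 5 and 6 of 8 fits without 1 library. Of the 11 fold changes, 8 lay above 0 and 3 below. Among those below were Brp44l (−0.14, adjusted p = 0.419 by edgeR) and Pdk1 (−0.30, adjusted p = 0.108), neither called. The mitochondrial ribosome, whose proteins translate the mitochondrially encoded subunits, had 4 called of 76 (5.26%, against 23.1% of all tested genes), 2 in each direction.

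**Figure D4:**
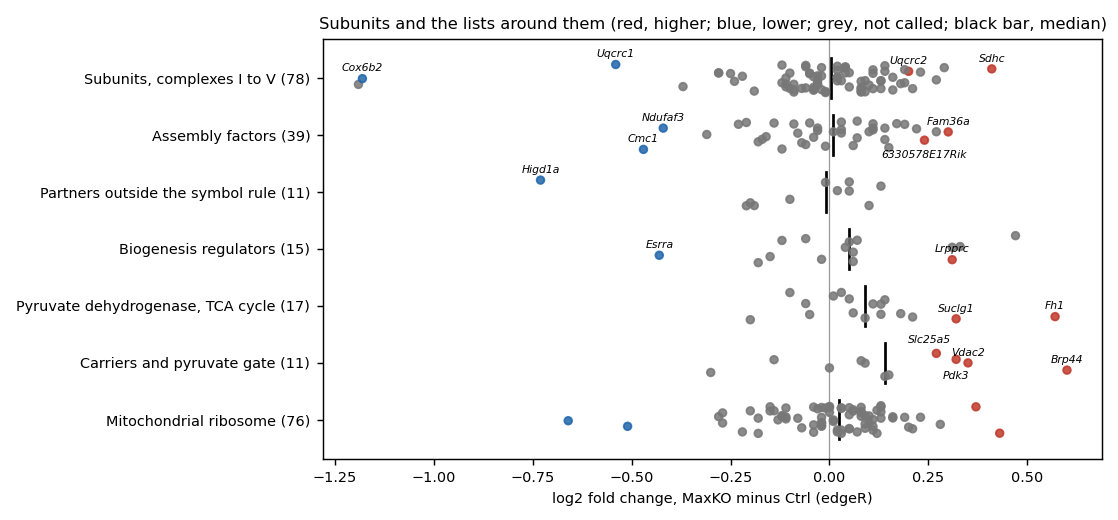
log2 fold change, MaxKO minus Ctrl (x axis), of each tested gene in 7 lists (y axis, number tested in brackets); red marks genes called higher, blue lower, grey not called, and the black bar the median. The medians run from −0.01 to 0.14, with 4 of 11 carriers and pyruvate gate genes called higher.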

How the data were processed

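RNA was measured by sequencing in 8 libraries, 4 MaxKO and 4 Ctrl. Per the labels' protocols, total RNA was taken with TRIZOL and 500 ng went into an Ultra RNA kit (NEB). The authors deposited raw whole-read counts, 1 per gene symbol and library. Per the submitters' processing notes, bcl2fastq 1.8.4, TopHat2 2.0.12, HTSeq 0.6.1 and the mm9 build were used; the annotation and strand setting are not given here, and reads of overlapping or antisense genes cannot be separated.

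The main comparison used edgeR 4.0.16 under R 4.3.3 (filterByExpr, TMM, robust quasi-likelihood F test, group as the only term, Benjamini-Hochberg adjustment over 13358 tested genes, threshold 0.05). CPM of untested genes use the same TMM-scaled library sizes, and only the level given for 3 counts uses plain library totals. Isoform shares had a two-sided exact permutation test. Alternatives were other scalings and count filters, DESeq2 1.42.0, limma 3.58.1 voom, a replicate block, fits without 1 library and fits with Ctrl libraries 1 and 2 or 3 and 4 alone. The test was checked on simulated data. Near-identical copies were GENCODE transcripts of pseudogenes or other members with at least 95% identity over at least 200 aligned bases.

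The members and lists were chosen with earlier results of these data known. Per-library values are given for called members, the largest rise and fall in each complex and the isoform families, and from each list up to 4 genes with the smallest p are named. Sdha, Atp5f1, Calca, Brp44l, Pdk1 and other genes named beside them were chosen after their values were seen. Same-numbered MaxKO and Ctrl libraries did not deviate together over the tested genes, so the main fit did not pair them. Whether same-numbered libraries were prepared together is not known. The values of 1 subunit gene and 1 marker gene are not reported here. Promoter sequences are RefSeq's, GRCm38.p6.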

Additional observations from a re-analysis of the deposited data

Results flagged for a closer look

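Among 60 groups of 4 libraries checked for a library apart from the other three, 3 held one; chance alone gives such a gap in about 5% of groups. Uqcrc2 read 176 CPM in Ctrl library 1, where the other controls read 180 to 181. Atp5f1 read 293 CPM in MaxKO library 3, where the others read 273 to 275, and 225 CPM in Ctrl library 4, where the others read 261 to 266.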

How the results depend on the processing

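Uqcrc1, Sdhc, Cox6b2 and Atp5sl kept their direction and their call under every alternative. Called subunits numbered 2 higher and 2 lower as reported. The higher count was 1 under upper-quartile scaling, without a count filter, with at least 1 CPM in at least 4 libraries, with limma-voom and with the replicate block, and 4 with DESeq2. With Ctrl libraries 1 and 2 alone it was 9 higher and 11 lower, and without 1 library 1 to 8 higher and 2 to 5 lower. Over all genes, controls 1 and 2 alone gave 2987 higher and 3081 lower, and leaving out 1 library gave 963 to 1846 higher and 1139 to 1929 lower. With the replicate block, 4 subunits were called, with Cox6a2 (adjusted p = 0.0325, edgeR) in place of Uqcrc2 (0.112). The deviations of same-numbered libraries had correlations of −0.21, −0.05, −0.02 and −0.09 over the tested genes.

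Assembly factors called higher numbered 1 under RLE and upper-quartile scaling, both count filters, limma-voom and the replicate block, and 8 with controls 1 and 2 alone; those called lower numbered 4 under upper-quartile scaling and 8 with controls 1 and 2 alone. Without 1 library they ran from 0 to 3 higher and 2 to 3 lower. Partners called lower numbered 4 with controls 1 and 2 alone and 1 to 3 without 1 library. Biogenesis regulators called higher numbered 3 with DESeq2 and with controls 1 and 2 alone, 2 with limma-voom, the replicate block and controls 3 and 4 alone, and 1 to 2 without 1 library; those called lower numbered 0 with the block and with controls 3 and 4 alone, 4 with controls 1 and 2 alone and 0 to 2 without 1 library. Pyruvate dehydrogenase and TCA cycle genes numbered 4 higher and 2 lower with controls 1 and 2 alone, and 1 to 3 higher without 1 library. Carriers numbered 2 higher under upper-quartile scaling and with controls 3 and 4 alone, 1 lower with either pair of controls, and 2 to 4 higher without 1 library. Mitochondrial ribosomal proteins numbered 9 higher and 7 lower with controls 1 and 2 alone, 4 higher with controls 3 and 4 alone, and 2 to 6 higher and 2 to 7 lower without 1 library.

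Among the named genes, fold changes that changed sign all belonged to genes not called with all 8 libraries. Some were called by edgeR with 1 pair of controls. Lower with controls 1 and 2 alone were Atp5l (−0.31, adjusted p = 0.00631), Cox4i1 (−0.27, 0.00434) and Cox7a2 (−0.26, 0.0116). Cox6a2 was called lower with controls 3 and 4 alone (−0.72, 0.0203). With controls 3 and 4 alone, Atp5l was at 0.09, Cox4i1 at 0.10, Cox7a2 at 0.06, Ttc19 at 0 and Tmem70 at 0.12. With controls 1 and 2 alone, Cox6a2 was at 0.06, Ndufa4l2 at 0.07, Sdhaf1 at −0.08 and Bcs1l at 0. Sdhaf1 was at −0.02 under upper-quartile scaling and ran from −0.04 to 0.11 without 1 library, and Tmem70 from −0.11 to 0.02. The share differences of Cox7a1 and Ndufa4l2 turned to 0.0127 and 0.00753 percentage points with controls 1 and 2 alone, and that of Atp5g2 to −0.958 with controls 3 and 4 alone. The cause of these changes was not tested. Fits with fewer libraries test fewer samples.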
